A study of Homo sapiens with 9 samples.

Results

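The carcinoembryonic antigen related cell adhesion molecules (CEACAMs) were followed in the colorectal cancer cell line LIM1215 and in its cetuximab-resistant derivatives. The members are named genes of the family, picked with earlier results of these data known: CEACAM1, CEACAM5, CEACAM6, CEACAM7 and CEACAM19, 5 of the 58920 genes listed in the count tables and 5 of the 19102 genes that had at least 10 counts over all libraries and were tested. LIM1215 is an epithelial line, and cetuximab is an antibody that blocks the epidermal growth factor receptor. LIM1215-R1 and LIM1215-R2 were selected in parallel over months of rising cetuximab, and LIM1215-parental was passaged beside them without the drug. Both resistant lines are mixed populations rather than clones, with HRAS mutations in subpopulations of their cells. All 3 groups were sequenced from untreated basal culture. The resistant lines were otherwise kept in cetuximab, and how long before harvest it was removed is not given in the sources used here. Messenger RNA was sequenced in 3 libraries per line, 9 in all. The study names these libraries technical replicates, so the p-values measure the spread between these libraries and not between separately grown cultures or separately selected lines. Effects of growing or harvesting the cells cannot be told apart from those of the line itself.

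CEACAM proteins are members of the immunoglobulin superfamily that sit at the cell surface and bind each other on neighbouring cells. CEACAM5 is the carcinoembryonic antigen measured in the blood of patients with colorectal cancer. CEACAM5, CEACAM6 and CEACAM7 are held in the outer leaflet of the membrane by a glycosylphosphatidylinositol (GPI) anchor. CEACAM1 crosses the membrane, and its long cytoplasmic form carries inhibitory tyrosine motifs that recruit the phosphatases SHP-1 and SHP-2. In normal colon CEACAM7 marks differentiated surface cells and is typically lost in tumours, while CEACAM5 and CEACAM6 are typically raised. CEACAM19 is a more distant membrane-spanning member.

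Total counts lay between 13737416 and 18725014 per library, and 3 counts, the upper limit that a count of 0 allows, corresponded to 0.160 to 0.218 counts per 1000000 counts (CPM). These limits cover counting error only. All 9 epithelial markers, among them EPCAM, CDH1 and KRT8, were among the tested genes. Their summed levels were 12866 to 13231 CPM in parental, 16258 to 16531 CPM in R1 and 14760 to 15155 CPM in R2 libraries. The sum was carried by KRT8 and KRT18, which rose, while EPCAM fell from 911 CPM in parental to 758 in R1 and 729 in R2. In each resistant line 4 of the 9 were higher and 4 lower (edgeR adjusted p at most 0.01). Of all tested genes, 27.3% in R1 and 23.8% in R2 passed in either direction. Of 11 leukocyte markers, 6 were at 0 in every library, including PTPRC and CSF3R, and the list summed to at most 0.314 CPM. Fibroblast and endothelial markers, 8 in all, summed to 1.19 to 3.30 CPM, with COL1A2 at 0.

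All members lie on chromosome 19 (GRCh38.p14, RefSeq). CEACAM7 occupies 41673303 to 41688270 on the minus strand, CEACAM5 41708626 to 41730519 on the plus strand, and CEACAM6 41755530 to 41772211 on the plus strand. Gaps of 20.4 kb and 25.01 kb separate these 3 genes. CEACAM1 lies 735 kb beyond CEACAM6, at 42507306 to 42528481 on the minus strand, and CEACAM19 a further 2137 kb on, at 44665860 to 44684355 on the plus strand. The 250 bases before the RefSeq start of 4 members are shown so that the promoters of members that changed by different amounts can be compared. They are chr19:41708376-41708625 for CEACAM5, chr19:41755280-41755529 for CEACAM6, chr19:42528482-42528731 for CEACAM1 and chr19:41688271-41688520 for CEACAM7, each written 5′ to 3′ on the strand of its gene, with matches to the searched motifs in capitals.
CEACAM5 promoter: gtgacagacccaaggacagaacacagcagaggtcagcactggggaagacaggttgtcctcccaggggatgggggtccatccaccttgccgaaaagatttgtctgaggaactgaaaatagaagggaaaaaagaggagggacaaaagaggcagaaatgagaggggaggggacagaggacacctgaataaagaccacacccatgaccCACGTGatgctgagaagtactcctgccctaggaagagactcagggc
CEACAM6 promoter: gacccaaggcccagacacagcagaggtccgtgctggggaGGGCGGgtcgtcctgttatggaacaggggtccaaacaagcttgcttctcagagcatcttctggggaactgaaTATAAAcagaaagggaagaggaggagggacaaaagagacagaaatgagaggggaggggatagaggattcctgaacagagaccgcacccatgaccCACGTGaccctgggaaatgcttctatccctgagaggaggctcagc
CEACAM1 promoter: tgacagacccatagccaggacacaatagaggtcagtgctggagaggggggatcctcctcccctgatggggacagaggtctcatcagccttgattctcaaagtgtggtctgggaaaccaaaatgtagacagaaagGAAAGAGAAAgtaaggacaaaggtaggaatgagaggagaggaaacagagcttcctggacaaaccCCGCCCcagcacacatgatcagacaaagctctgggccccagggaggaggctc
CEACAM7 promoter: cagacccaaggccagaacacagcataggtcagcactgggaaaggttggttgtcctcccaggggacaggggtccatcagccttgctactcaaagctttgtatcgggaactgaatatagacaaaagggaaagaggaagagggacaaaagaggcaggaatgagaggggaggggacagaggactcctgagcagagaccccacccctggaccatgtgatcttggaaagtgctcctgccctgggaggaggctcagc

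The E-box CACGTG, which reads the same on both strands and is a binding sequence of USF1 and USF2, began 46 bases before the start of CEACAM5 and 45 bases before that of CEACAM6. It was absent from the windows of CEACAM1 and CEACAM7. The windows rest on the RefSeq starts, and their activity was not tested. Of 35116 RefSeq windows of the same length, 6.35% held this E-box. The GC box GGGCGG was found in CEACAM6, 211 bases before the start, and on the opposite strand in CEACAM1, 52 bases before it. It was present in 42.6% of all windows. The TATA box TATAAA occurred in CEACAM6, 139 bases before the start, and in 10.7% of windows. An interferon response motif, GAAA and GAAA with any 2 bases between them, occurred in CEACAM1, 116 bases before the start, and in 3.02% of windows. CCAAT (32.0% of windows), TTTATG (9.64%), a motif of the intestinal factors CDX1 and CDX2, and TGANTCA (6.57%), the AP-1 motif, had no match in the 4 windows. Both strands were searched for all 7 motifs, and the matches in the members did not overlap. The windows are related to each other: identity was 84.4% between CEACAM5 and CEACAM7, 80.2% between CEACAM6 and CEACAM7, 78.5% between CEACAM5 and CEACAM6, and 69.6% to 75.8% between CEACAM1 and the other 3.

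The first question was which CEACAM genes differed between each resistant line and parental cells. In R1, 4 of the 5 members were called differentially expressed genes (DEGs), all higher, against 3.24% of all tested genes that were DEGs in that direction. CEACAM7, 1 of these 4, passed the 10-count filter only through the resistant libraries, so its test is not independent of that choice. Requiring at least 10 counts in every library, which leaves CEACAM7 out, 3 members were DEGs in R1. In R2, 2 of 5 were DEGs, both higher, against 2.63% of all tested genes. A DEG had an adjusted p of at most 0.01 (edgeR quasi-likelihood test, Benjamini-Hochberg over all tested genes) and changed by 1.5 or more on the log2 scale in either direction. By the adjusted p alone, 4 members rose in R1 and 3 in R2, where 14.0% and 12.3% of all tested genes rose. No member fell in either line. The median log2 fold change of the members was 1.78 in R1 and 1.97 in R2, beside -0.01 and -0.0037 over all tested genes. Both comparisons share the 3 parental libraries. In bulk RNA, a larger share of cells that express a gene and more of its RNA per cell cannot be told apart.

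**Figure D1:**
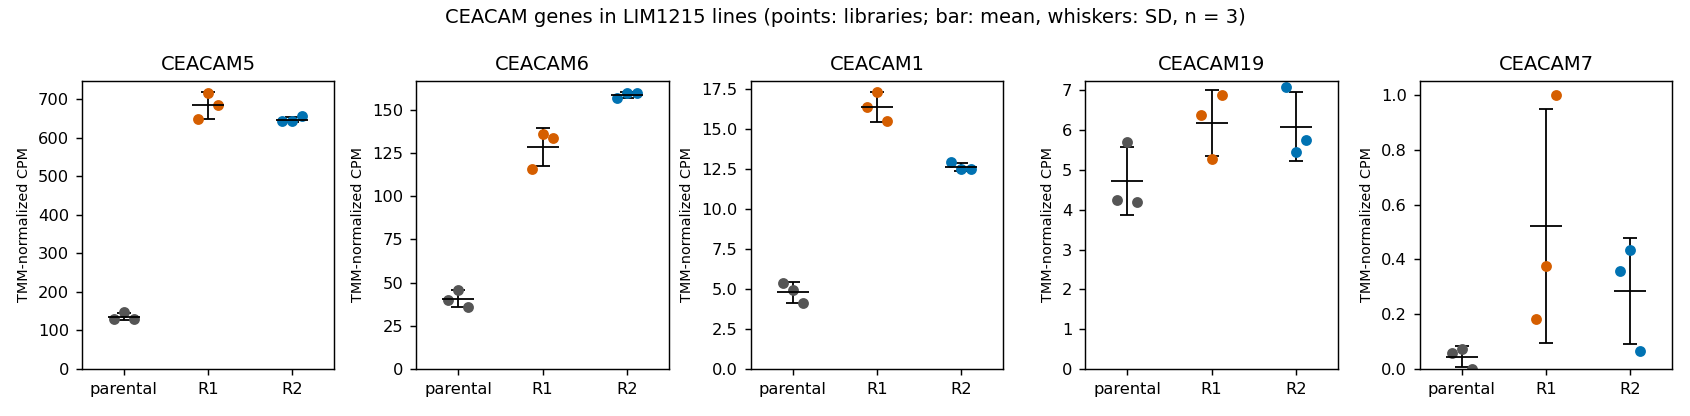
Level of each CEACAM gene (TMM-normalized CPM, a linear axis from 0 of its own for each gene) in the 9 libraries, with points for libraries, a bar for the mean of each line and whiskers for the SD (n = 3). CEACAM5 lies at 129.8 to 148 CPM in parental and at 644 to 718 CPM in all 6 resistant libraries, while the CEACAM19 points of the 3 lines overlap.

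CEACAM5 was the most abundant member and the one that rose most in CPM. The parental libraries held 129.8, 148 and 131 CPM of CEACAM5. The R1 libraries held 650.3, 718 and 685 CPM and the R2 libraries 644, 644 and 656 CPM. Every resistant library was above every parental one, and the ranges of R1 and R2 overlapped. Means were 136 ± 10.3 CPM in parental, 684 ± 33.9 in R1 and 648 ± 6.90 in R2 (SD, n = 3 each). The log2 fold change of CEACAM5 was 2.33 in R1 (SE 0.0497, edgeR adjusted p = 7.06e-23), a 5.03-fold rise, and 2.25 in R2 (SE 0.0496, edgeR adjusted p = 9.33e-23), a 4.77-fold rise. Ranked by p among the 19102 genes, it was number 4 in R1 and number 7 in R2. Ranked by increase in log2 fold change, it was number 593 in R1 and number 537 in R2. By CPM, CEACAM5 moved from rank 1502 in parental cells to rank 147 in R1 and 154 in R2. R2 and R1 differed by -0.08 on the log2 scale (95% interval -0.17 to 0.01, edgeR adjusted p = 0.311), which did not pass.

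CEACAM6, the neighbour of CEACAM5 that is likewise GPI-anchored, rose in both lines and more in R2. Its parental libraries held 39.95, 45.9 and 36.1 CPM, those of R1 116, 136 and 134 CPM, and those of R2 157, 159.8 and 159.6 CPM. The 3 ranges did not overlap. Mean CEACAM6 was 40.7 ± 4.97 CPM in parental, 128 ± 11.1 in R1 and 159 ± 1.69 in R2 (SD, n = 3 each). Its log2 fold change was 1.67 in R1 (SE 0.0713, edgeR adjusted p = 1.11e-16) and 1.97 in R2 (SE 0.0709, edgeR adjusted p = 2.30e-18), that is 3.17-fold and 3.93-fold. Among the members, CEACAM6 was the only one to pass between the resistant lines in the fit to all 9 libraries, where 7.16% of all tested genes passed and 3.39% were higher in R2. That difference was 0.31 on the log2 scale, 1.24-fold (SE 0.0645, edgeR adjusted p = 0.00155). The call was lost without R1 replicate 1, where the difference was 0.24 (adjusted p 0.0102). It was also lost without R2 replicate 1 and without R2 replicate 2 (adjusted p 0.0110 and 0.0167), where the difference was 0.32 and 0.30.

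CEACAM1, the membrane-spanning member with inhibitory signalling motifs, was present at lower levels and rose in both lines. The parental libraries held 5.37, 4.91 and 4.10 CPM of CEACAM1. The R1 libraries held 16.4, 17.3 and 15.5 CPM and the R2 libraries 12.9, 12.5 and 12.5 CPM. No group overlapped another, and R1 was the highest. The log2 fold change of CEACAM1 was 1.78 in R1 (SE 0.118, edgeR adjusted p = 1.27e-12) and 1.40 in R2 (SE 0.122, edgeR adjusted p = 3.10e-10), or 3.43-fold and 2.65-fold. In R2 CEACAM1 therefore passed the adjusted p but not the fold change required of a DEG. Between the resistant lines it was lower in R2 by a log2 difference of -0.37 (95% interval -0.57 to -0.18, edgeR adjusted p = 0.0132), which did not pass 0.01 in the fit to all libraries. The counts do not separate the long and short cytoplasmic forms of CEACAM1.

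CEACAM7, the marker of differentiated surface colonocytes, was close to the detection limit in every library. Parental libraries held 1, 1 and 0 counts of CEACAM7, R1 libraries 3, 6 and 16 counts, and R2 libraries 6, 7 and 1 counts. R1 did not overlap parental, whereas R2 did. Summed over a line, 25 counts in R1 against 2 in parental gave a depth-adjusted ratio of 12.9 (exact 95% counting interval 3.22 to 113), and 14 counts in R2 gave a ratio of 7.23 (1.66 to 65.5). The edgeR adjusted p of CEACAM7 was 0.00424 in R1 and 0.0526 in R2. The gene was tested only because of its counts in the resistant libraries, where it was higher, so these tests are not independent of that choice. The R1 call was lost with DESeq2 (adjusted p 0.0135), without parental replicate 1 (0.0122), without parental replicate 3 (0.0298) and without R1 replicate 3 (0.0729), the library with 16 counts.

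CEACAM19 did not pass in either line. Its parental libraries held 4.25, 5.71 and 4.202 CPM, the R1 libraries 6.38, 5.27 and 6.88 CPM, and the R2 libraries 7.08, 5.45 and 5.75 CPM. All 3 ranges overlapped. The log2 difference of CEACAM19 was 0.41 in R1 (95% interval 0.09 to 0.72, edgeR adjusted p = 0.0501) and 0.39 in R2 (0.07 to 0.70, edgeR adjusted p = 0.0686). Between R2 and R1 it was -0.02 (-0.32 to 0.29, edgeR adjusted p = 0.968).

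**Figure D2:**
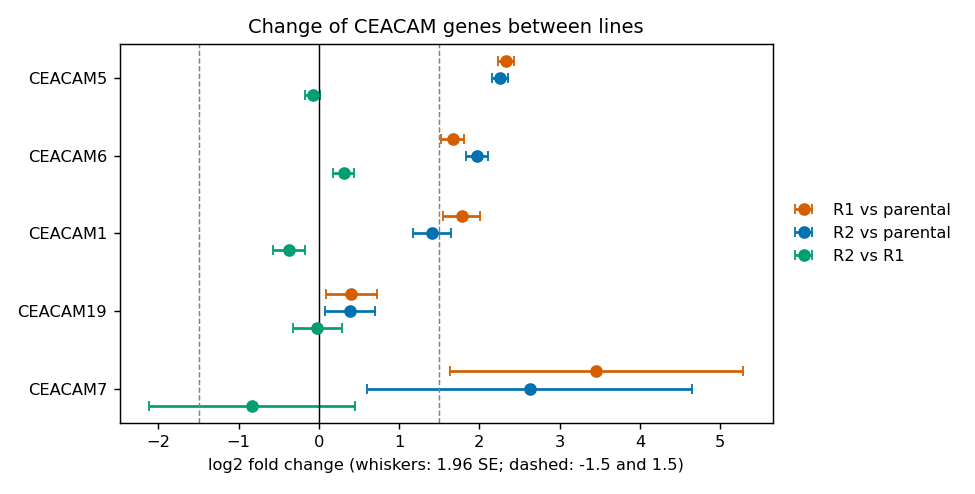
Log2 fold change of each CEACAM gene in R1 and R2 against parental cells and in R2 against R1, with points for the edgeR estimates bars for 95% intervals and dashed lines at -1.5 and 1.5. CEACAM5 lies at 2.33 and 2.25 with short bars, and the bars of CEACAM7, which had at most 16 counts in a library, are the longest.

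**Figure D3:**
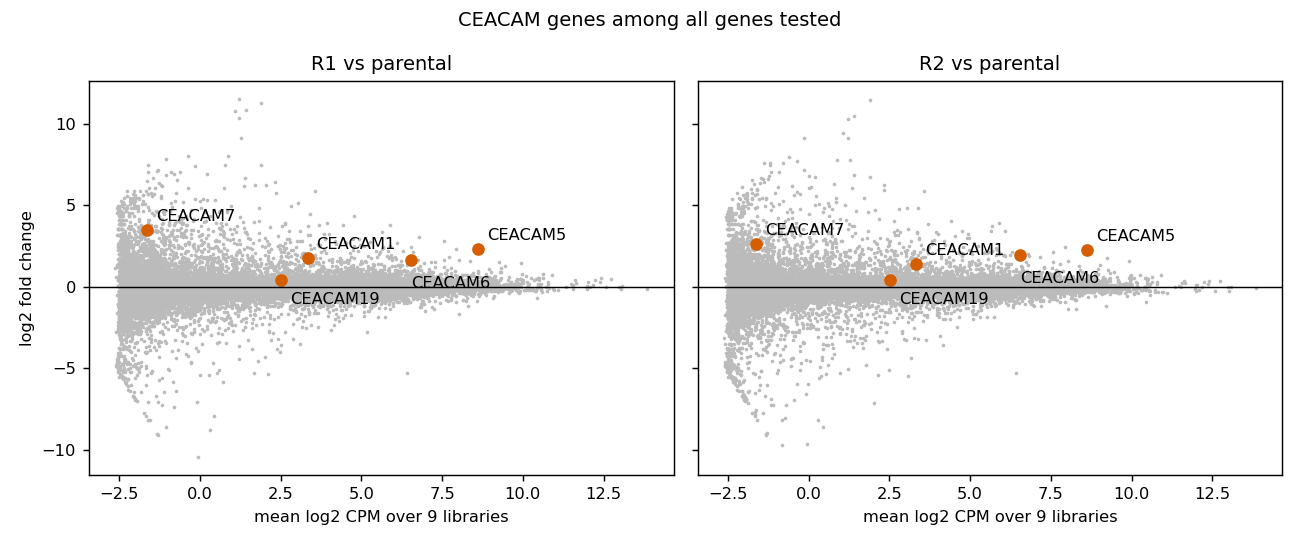
Log2 fold change against mean log2 CPM for all 19102 tested genes (grey) and the 5 CEACAM genes (orange), for R1 and R2 against parental cells. CEACAM5 and CEACAM6 lie above the grey band at high levels, and CEACAM19 lies at 0.41 and 0.39, close to the zero line.

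To compare levels between genes, CPM was divided by the length of all annotated exons of each gene in kilobases. On this scale the order in parental cells was CEACAM5 with 34.2 ± 2.59, CEACAM6 with 13.8 ± 1.68, CEACAM19 with 0.912 ± 0.165, CEACAM1 with 0.867 ± 0.117 and CEACAM7 with 0.0165 ± 0.0145 CPM per kb (SD, n = 3). CEACAM19 and CEACAM1 did not differ beyond their spread. In R1 the order was CEACAM5 (172 CPM per kb), CEACAM6 (43.4), CEACAM1 (2.96), CEACAM19 (1.19) and CEACAM7 (0.196), and in R2 it was the same order at 163, 53.7, 2.29, 1.18 and 0.108 CPM per kb. CEACAM1 thus lay above CEACAM19 in both resistant lines, while in parental cells the order of these genes was not settled. Summed CPM of the 5 genes was 186 ± 16.0 in parental, 836 ± 44.3 in R1 and 826 ± 7.04 in R2 (SD, n = 3), which is 4.48-fold and 4.43-fold the parental sum.

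The next question was whether the members moved in proportion. Within each library the CPM of 2 members can be divided, a ratio that does not depend on how libraries are scaled. CEACAM5 per CEACAM6 was 3.22 to 3.62 in parental, 5.12 to 5.63 in R1 and 4.03 to 4.11 in R2 libraries, 3 ranges that did not overlap. CEACAM6 per CEACAM1 was 7.44 to 9.35 in parental and 7.06 to 8.66 in R1, which overlapped, but 12.2 to 12.8 in R2. CEACAM5 per CEACAM1 was 24.2 to 31.9 in parental, 39.7 to 44.3 in R1 and 49.9 to 52.6 in R2. Of the counts that fell on the 5 genes, CEACAM5 took 72.3% to 74.6% in parental, 81.3% to 82.4% in R1 and 78.3% to 78.7% in R2, and CEACAM6 20.6% to 22.4%, 14.7% to 15.9% and 19.1% to 19.4%.

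The 6 resistant libraries were compared with the 3 parental ones for all 10 pairs of members, by the log2 ratio with 0.5 CPM added to each gene. For 5 of the 6 pairs without CEACAM7 every resistant library lay on the same side of every parental one, and the two-sided exact permutation p was 0.0238, the smallest that 6 against 3 libraries can give (0.0298 after Benjamini-Hochberg adjustment over the 10 pairs). Its units are libraries with R1 and R2 pooled, so this p does not measure a spread between resistant lines. The ranges of R1 and R2 did not overlap for CEACAM5 to CEACAM6 and for CEACAM1 to CEACAM5. The log2 ratio of CEACAM5 to CEACAM6 was higher by 0.48 in the resistant libraries (6 of 6 above all parental ones), that of CEACAM5 to CEACAM19 by 1.94, and that of CEACAM1 to CEACAM19 by 1.15. The exception was CEACAM1 to CEACAM6, with a difference of -0.31 and an exact permutation p of 0.333 before and after adjustment. That difference pools unlike lines: the mean log2 ratio was -2.96 in parental, -2.93 in R1 and -3.60 in R2. All R2 libraries lay below the parental range for this pair. The 4 pairs with CEACAM7 are not read from this test, because its mean of 0.0438 CPM in parental, 0.521 in R1 and 0.285 in R2 is near or under the 0.5 CPM added. In counts summed over a line, there were 3368 of CEACAM5 per count of CEACAM7 in parental (exact 95% counting interval 932 to 27816), 1320 in R1 (894 to 2039) and 2234 in R2 (1331 to 4086). CEACAM6 per CEACAM7 was 1000 in parental (276 to 8263), 247 in R1 (167 to 383) and 547 in R2 (326 to 1001). A comparison of 1 resistant line with parental, 3 libraries against 3, cannot go below 0.1.

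**Figure D4:**
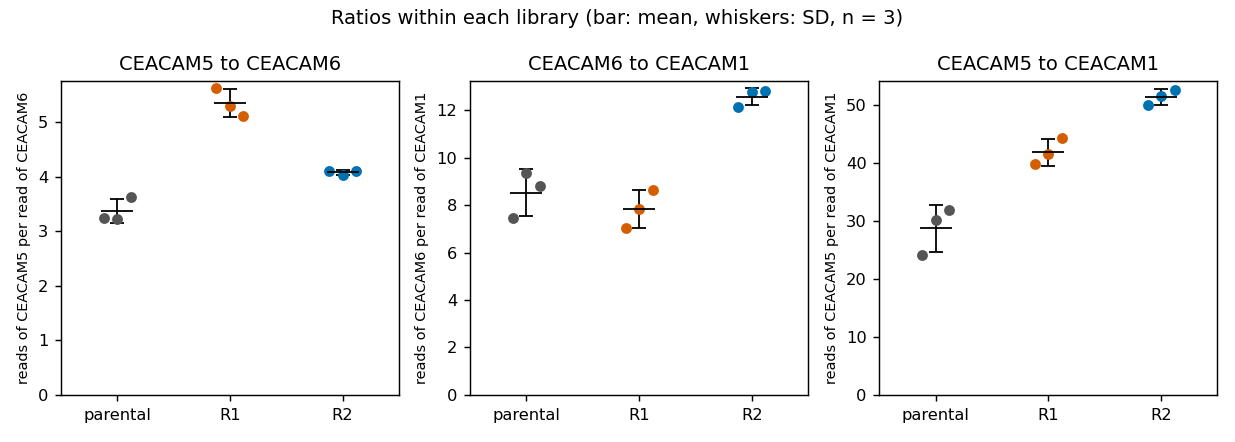
Ratios of CPM between CEACAM5, CEACAM6 and CEACAM1 within each of the 9 libraries, with points for libraries grouped by line, a bar for each mean and whiskers for the SD (n = 3). CEACAM5 per CEACAM6 is highest in R1 (5.12 to 5.63), whereas CEACAM6 per CEACAM1 is highest in R2 (12.2 to 12.8).

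The relatives outside the 5 members were nearly silent. The other 17 listed genes of the CEACAM and pregnancy-specific glycoprotein families held 73 counts in all over the 9 libraries, against 89343 counts on the members, and 6 of them were at 0. Only CEACAM18 and PSG9 had enough counts to be tested. CEACAM18 reached them only through the resistant libraries, where it was higher, so its test is not independent of that choice. CEACAM18 had 0 counts in every parental library, 5, 2 and 5 in R1 and 3, 11 and 9 in R2. Against a limit of 3 counts over the parental libraries, CEACAM18 was at least 4.13-fold higher in R1 and at least 7.91-fold higher in R2 (edgeR adjusted p = 0.00573 and 0.000462). The exact 95% counting interval of the ratio, which also covers the resistant counts, began at 2.87 in R1 and 5.93 in R2. Because family members are alike in sequence, reads can fit more than 1 of them: of the 50-base stretches of the main transcript, 6.26% in CEACAM5, 8.25% in CEACAM6 and 4.18% in CEACAM1 also occur in another gene of the GENCODE annotation, and 0 in CEACAM7 and CEACAM19. With 100 bases the shares were 1.91%, 2.04% and 0.531%. For CEACAM5 and CEACAM6 the shared 100-base stretches lay in a GENCODE gene model that overlaps both on the same strand. That model also shared the most 50-base stretches with each of them, so these shares do not measure likeness between family members alone.

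Genes around the members were examined next, since CEACAM5, CEACAM6 and CEACAM7 lie side by side. Of the 18 tested non-members among the nearest 3 on either side of each member, 6 passed in R1, 3 higher and 3 lower, against 27.3% of all tested genes that passed there in either direction. In R2, 8 passed, 3 higher and 5 lower, against 23.8%. Only the noncoding LOC112268252, which lies within CEACAM6, was a DEG among them, with 2 counts over the parental libraries, 23 over R1 and 19 over R2 (edgeR adjusted p = 0.00253 and 0.00760). LOC112268252 passed the 10-count filter only through the resistant libraries, so its test is not independent of that choice. The gene overlaps CEACAM6, and reads that could come from either were not examined. Its ratio to parental was 11.9 in R1 (exact 95% counting interval 2.93 to 104) and 9.81 in R2 (2.36 to 86.8). Within 1500 kb of the CEACAM5 start, 65 genes were tested. In R1, 6 of these were DEGs: CEACAM7, CEACAM5, CEACAM6, LOC112268252, TMEM145 and CEACAM1. In R2 they were CEACAM5, CEACAM6, LOC112268252 and TMEM145. All of these were higher, where 3.24% of all tested genes in R1 and 2.63% in R2 were DEGs in that direction. The CEACAM genes among them are members, which were picked with earlier results known. CEACAM7, LOC112268252 and TMEM145 were tested only because of their counts in the resistant libraries, so their calls are not independent of that choice.

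**Figure D5:**
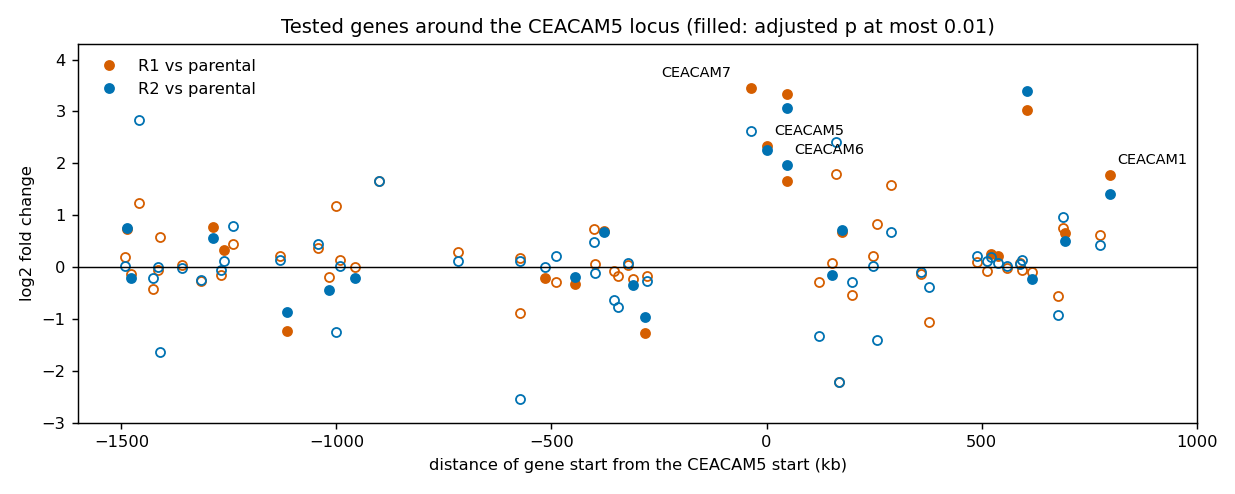
Log2 fold change of the 65 tested genes within 1500 kb of the CEACAM5 start, plotted by the distance of their start from it in kb, for R1 (orange) and R2 (blue) against parental cells, filled where the edgeR adjusted p was at most 0.01. Most genes lie near 0, while CEACAM5, CEACAM6 and CEACAM1 lie above 1 in both lines. So do CEACAM7, LOC112268252 and TMEM145, and also MIR6797, CYP2T1P and LOC107985289, which did not pass in either line.

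Other genes of the pathways that make, regulate or bind CEACAM proteins were taken from lists. GPI-anchored CEACAM proteins need an anchor that is built in the endoplasmic reticulum and attached to the protein. Of 26 tested genes of GPI synthesis and attachment, 3 rose and 6 fell in R1, and 0 rose and 4 fell in R2. These are 34.6% and 15.4% of the list, against 27.3% and 23.8% of all tested genes that passed in either direction. None was a DEG in either line. PGAP1, which removes an acyl chain from the new anchor, had the largest change in R1, from 45.0 ± 3.28 CPM in parental to 22.4 ± 3.49 in R1 and 29.7 ± 2.87 in R2 (SD, n = 3). Its log2 fold changes were -1.01 and -0.60 (edgeR adjusted p = 8.56e-10 and 4.34e-06). PIGV, a mannosyltransferase, fell in R1 (log2 fold change -0.53, edgeR adjusted p = 0.000448), as did PGAP3, which remodels the anchor's lipid (-0.48, edgeR adjusted p = 0.000572), and PIGH, part of the enzyme of the first step, rose (0.49, edgeR adjusted p = 0.000383). The list's median log2 fold change was -0.06 in R1 and -0.04 in R2.

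Of 20 other tested genes for GPI-anchored proteins, 9 rose and 3 fell in R1, and 8 rose and 3 fell in R2, together 60% and 55% of the list against 27.3% and 23.8% of all tested genes. In R1 6 of those that rose were DEGs and in R2 4, where 3.24% and 2.63% of all tested genes were DEGs in that direction. The placental alkaline phosphatase ALPP went from 4.51 ± 0.358 CPM in parental to 89.6 ± 4.10 in R1 and 47.9 ± 1.89 in R2 (SD, n = 3). ALPG, its germ cell counterpart, went from 0.545 to 5.19 and 2.09 CPM. ALPP and ALPG are near-identical copies, so the division of reads between them is uncertain. The intestinal alkaline phosphatase ALPI rose 4.41-fold in R1 and 2.14-fold in R2. NT5E, the ecto-5′-nucleotidase CD73, went from 1.87 ± 0.590 CPM to 9.22 ± 1.34 in R1 and 19.7 ± 1.36 in R2 (SD, n = 3). The urokinase receptor gene PLAUR went from 6.40 to 18.3 and 17.1 CPM. BST2, which encodes the virus-tethering protein tetherin, had 0 counts in the parental libraries and was at least 29.3-fold higher in R1 and at least 6.88-fold higher in R2, against 3 counts over the parental libraries. The exact 95% counting interval of the BST2 ratio began at 23.3 in R1 and 5.10 in R2. The median over this list was 0.40 in R1 and 0.12 in R2 on the log2 scale.

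Of 12 tested genes for signalling and binding partners of CEACAM1, 3 rose and 2 fell in R1, and 3 rose and 3 fell in R2, with no DEG in either line. That is 41.7% and 50% of the list, against 27.3% and 23.8% of all tested genes. FLNA, the actin-binding filamin A, went from 1392 ± 75.1 CPM to 2284 ± 148 in R1 and 2246 ± 24.7 in R2 (SD, n = 3). The Src-family kinase gene FYN went from 7.13 ± 0.549 CPM to 4.85 ± 0.288 in R1 and 2.60 ± 0.465 in R2 (SD, n = 3), log2 fold changes of -0.56 and -1.45 (edgeR adjusted p = 0.00310 and 3.46e-08). HAVCR2, which encodes the inhibitory T cell receptor TIM-3, and the insulin receptor substrate IRS1 had means of at most 0.186 CPM and did not pass. The splicing factors HNRNPL, HNRNPM and HNRNPA1, which act on the alternative exon of CEACAM1, showed small decreases: HNRNPM and HNRNPA1 fell in both lines and HNRNPL in R2, with log2 fold changes between -0.30 and -0.14. HNRNPL in R1 had a value of -0.12 that did not pass (edgeR adjusted p = 0.0208).

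None of 13 tested transcription factors of CEACAM promoters rose in either line, while 7 fell in R1 and 4 in R2, which is 53.8% and 30.8% of the list against 27.3% and 23.8% of all tested genes that passed in either direction. The intestinal homeobox factor CDX1 fell from 195 ± 9.26 CPM to 108 ± 5.23 in R1 and 124 ± 5.91 in R2 (SD, n = 3). CDX2, its close relative, went from 413 to 305 and 283 CPM, the hepatocyte nuclear factor gene HNF4A from 239.9 to 164 and 155 CPM, and TFAP2A from 19.1 to 12.03 and 12.5 CPM. All 4 passed in both lines. USF1 and USF2, named because the E-box of CEACAM5 and CEACAM6 is their binding sequence, did not pass. USF1 had 32.6 ± 1.03 CPM in parental, 31.2 ± 2.06 in R1 and 29.7 ± 0.662 in R2 (SD, n = 3), and USF2 77.7 ± 2.27, 75.8 ± 4.53 and 74.2 ± 4.77 CPM. Their part in the CEACAM levels was not tested.

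Of 12 tested markers of colonic differentiation, 3 rose and 6 fell in R1, and 3 rose and 5 fell in R2, together 75% and 66.7% of the list against 27.3% and 23.8% of all tested genes. The DEGs were FABP1, a fatty acid binding protein of enterocytes, which went from 4.13 ± 0.833 CPM to 0.996 ± 0.113 in R1 and 0.930 ± 0.228 in R2 (SD, n = 3), and CA1, a carbonic anhydrase of surface colonocytes, which went from 1.27 ± 0.237 to 0.188 ± 0.167 and 0.125 ± 0.108 CPM. Those that rose in R1 were CA2 (log2 fold change 1.49, from 0.407 to 1.10 CPM), TSPAN1 (0.86) and VIL1 (0.40). Those that rose in R2 were TSPAN1 (0.65), GPA33 (0.46) and VIL1 (0.26). The list's median log2 fold change was -0.25 in R1 and -0.29 in R2.

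For each member, the 3 genes with the most similar course over the 9 libraries were sought among 10085 genes that averaged 100 counts or more in a library, by the root mean square difference of their centred log2 CPM. For CEACAM5 these were PLK2, MGLL and LITAF (0.091 to 0.099), for CEACAM6 EEPD1, SPNS2 and LOC105369370 (0.10 to 0.12), and for CEACAM1 EPPK1, EPAS1 and CTSL (0.088 to 0.13). CEACAM19 was nearest to NUFIP1, TBC1D2 and N4BP3 (0.11 to 0.13). The nearest genes to CEACAM7, TSPAN33, ARHGDIB and IFFO2, were farther away at 0.57 to 0.59. Among the members themselves CEACAM5 and CEACAM6 were closest to each other, at 0.28. These distances are descriptions over libraries of 3 lines and carry no test.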

How the data were processed

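Stranded, paired-end mRNA libraries were made from untreated cells of the parental line, R1 and R2, 3 per line. The authors used STAR for alignment to hg38 and htseq-count 0.9.1 (version per the labels) for reverse-strand counting, and deposited raw counts by gene symbol, without normalization. The annotation used for counting is not given in the sources used here.

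The 19102 genes whose counts summed to 10 or more were tested. CEACAM7, CEACAM18, BST2, LOC112268252 and TMEM145, with few or no parental counts, reached that sum through the resistant libraries. Counts were scaled by TMM (factors 0.984 to 1.02) and tested in R 4.3.3 with edgeR 4.0.16 (glmQLFit, glmQLFTest), in 1 model over 3 groups, with Benjamini-Hochberg adjustment over all genes. CPM use the TMM factors, and the 95% intervals are the estimate ± 1.96 SE. Group limits of 0 counts are 3 counts over a line's libraries. DESeq2 1.42.0, other filters, normalizations and thresholds, fits to 6 libraries, a replicate block and leaving out each library were the alternatives. Within-library ratios (0.5 CPM added, 10 pairs) used exact permutation tests (scipy 1.17.1, two-sided). The tests were checked on simulated data.

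Positions and promoter windows came from RefSeq (GRCh38.p14), with windows for 4 of the 5 members (none for CEACAM19), and exon lengths and shared stretches from GENCODE 44 with Biopython 1.88 for alignments. The members and lists were chosen with earlier results of these data known. From each list, genes named were those called DEGs against parental or otherwise up to 4 by the largest absolute log2 fold change in R1. USF1 and USF2 were added for their motif, and LOC112268252 and TMEM145 as the DEGs near the members. The colonic differentiation markers that rose were added because both named DEGs of that list fell.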

Additional observations from a re-analysis of the deposited data

Results flagged for a closer look

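In the fit to all 9 libraries, CEACAM6 was the only member whose change against parental cells differed between the resistant lines by a test of the difference itself. Its log2 level was higher in R2 than in R1 by 0.31, with 157 to 159.8 CPM in the 3 R2 libraries and 116 to 136 CPM in the 3 R1 libraries (edgeR adjusted p = 0.00155, range over 17 alternatives 3.09e-06 to 0.0167). R1 replicate 1, at 116 CPM, was the lowest R1 library, and without it the difference was 0.24 with an edgeR adjusted p of 0.0102.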

How the results depend on the processing

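The log2 fold changes of the members kept their direction and their side of the threshold in 234 of 250 refits. In 5, all between R2 and R1 and without a call, the sign changed (4 of CEACAM19, with values up to 0.07, and 1 of CEACAM7, at 0.04), and in 11 the call changed. CEACAM5 against parental lay between 2.30 and 2.39 in R1 and between 2.22 and 2.32 in R2 over all settings, and CEACAM6 between 1.58 and 1.76 and between 1.89 and 2.06. Tested against the fold change threshold itself, 1 of the 4 DEGs among the members in R1 was left, CEACAM5. Between the resistant lines, the count of members that passed was 2 with only the 6 libraries of the comparison, and 0 to 2 when each library was left out in turn. The second member was CEACAM1, which passed with an edgeR adjusted p of 0.00796 in the 6-library fit and 0.0093 without parental replicate 2. Counting DEGs over all genes, requiring at least 10 counts in every library gave 302, 297 and 34 (R1 and R2 against parental, R2 against R1) in place of 982, 921 and 146, the threshold test 405, 408 and 23, DESeq2 with lfcShrink 394, 408 and 41, and a log2 threshold of 1 gave 270 between the resistant lines. There, genes that passed fell from 1368 to 743, 772 and 860 without R2 replicate 1, R2 replicate 2 and R1 replicate 3. Of 510 recalculated list counts, 58 moved by more than 1.5 times. Levels per kilobase moved beyond 1 SD for 12 of 15 values when the longest transcript gave the length, with the same order of members.

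For the within-library ratios, R1 and R2 alone against parental gave log2 differences of -0.65 and -0.93 for CEACAM1 to CEACAM5, 0.85 and 0.82 for CEACAM1 to CEACAM7, 1.32 and 0.98 for CEACAM1 to CEACAM19, 0.68 and 0.29 for CEACAM5 to CEACAM6, 1.496 and 1.75 for CEACAM5 to CEACAM7, 1.97 and 1.91 for CEACAM5 to CEACAM19, 0.82 and 1.46 for CEACAM6 to CEACAM7 and 1.29 and 1.62 for CEACAM6 to CEACAM19, all without a test that could reach 0.05. Leaving out each library in turn gave -0.86 to -0.68 for CEACAM1 to CEACAM5, 0.73 to 0.97 for CEACAM1 to CEACAM7, 1.04 to 1.29 for CEACAM1 to CEACAM19, 0.43 to 0.54 for CEACAM5 to CEACAM6, 1.51 to 1.77 for CEACAM5 to CEACAM7, 1.87 to 1.99 for CEACAM5 to CEACAM19, 0.99 to 1.32 for CEACAM6 to CEACAM7 and 1.39 to 1.53 for CEACAM6 to CEACAM19. The values with CEACAM7 are set by the 0.5 CPM added to it: from summed counts without it, an alternative chosen after seeing the data, the differences were -1.72 for CEACAM1 to CEACAM7, -1.03 for CEACAM5 to CEACAM7, -1.49 for CEACAM6 to CEACAM7 and 2.93 for CEACAM7 to CEACAM19. Leaving out a parental library raised the adjusted exact permutation p of these 8 pairs to 0.0893, a design of fewer samples.

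Deviations of libraries with the same replicate number had correlations from -0.11 to 0.27, beside -0.26 to 0.19 for different numbers. Between R1 and parental the same numbers gave 0.13, 0.27 and 0.01, and in the pairings with R2 the signs were mixed. The numbers are taken as names only in the main fit. With the replicate block, 2 members passed between the resistant lines, CEACAM6 and CEACAM1 (edgeR adjusted p = 0.0056), and the other calls of members were the same. Over all genes, the block raised those that passed from 5222 to 5841 in R1 and from 4554 to 5197 in R2. Between the resistant lines they rose from 1368 to 2044. The cause was not tested. Depth limits CEACAM7 and CEACAM18, each under 20 counts per library.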

Other observations

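TMEM145, a gene 605 kb from the CEACAM5 start that was named after its values were seen, was the only DEG of both lines within 1500 kb that was neither a member nor inside one. It held 6 counts over the parental libraries, 50 over R1 and 64 over R2. Its ratio to parental was 8.61 in R1 (exact 95% counting interval 3.69 to 24.6) and 11.01 in R2 (4.79 to 31.1), with edgeR adjusted p of 0.000183 and 2.68e-05. TMEM145 reached the counts needed for testing through the resistant libraries, so its test is not independent of that choice.

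Among the lists, the change between the resistant lines was most frequent for the other GPI-anchored proteins, where 2 of 20 tested genes were higher and 7 lower in R2 than in R1, against 7.16% of all tested genes that passed there in either direction. ALPP was lower in R2 by a log2 difference of -0.90 and ALPG by -1.31, whereas NT5E was higher by 1.09. CEACAM5, held by the same kind of anchor, had -0.08 in this comparison and did not pass. CEACAM6, also GPI-anchored, had 0.31 and passed in the fit to all 9 libraries.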
